A study of Mus musculus with 4 samples.

Results

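In RNA from the deep cerebellar nuclei, genes behind the spontaneous firing of neurons were followed, chosen by name: Hcn2, Hcn3, Hcn4, Pex5l, Nalcn, Unc79 and Unc80, 7 of 32531 gene names in the count tables. The RNA came from adult mice of the transgenic line Slc17a6-TRAP JX883, in which the ribosomal protein Rpl10a is fused to EGFP and made under the Slc17a6 gene's regulatory sequences. Slc17a6 encodes a vesicular glutamate transporter of glutamatergic neurons. In translating ribosome affinity purification (TRAP), antibodies to EGFP pull down the tagged ribosomes with the RNA bound to them. The samples form 1 group of 4 immunopurified libraries (replicates 1 to 4), each pooled from 3 mice and none treated, with no input RNA and no other genotype used here. The labels do not say whether the pools were separate, so p-values concern only the spread between these libraries, which may be technical.

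Neurons of the cerebellar nuclei fire without synaptic input. Channels of the HCN family open on hyperpolarisation, pass a mixed sodium and potassium inward current and are opened further by cyclic AMP. Pex5l encodes TRIP8b, an accessory subunit that binds HCN channels, sets how many reach the membrane and reduces their response to cyclic AMP. Nalcn encodes a sodium leak channel that passes a steady inward current and holds the membrane near the firing threshold. Unc79 and Unc80 encode large proteins that join the Nalcn protein in one complex and are needed for its current.

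TRIP8b grips the last amino acids of HCN proteins, and the coding ends of the 3 HCN genes are shown because this is where the partner in the set meets the channel. Each line gives the last 30 coding bases before the stop codon in the GENCODE transcripts, with the last 9 bases, which encode the carboxy-terminal tripeptide, in capitals.
Hcn2: tctgcgcgctcgcgcctctctTCCAACTTG
Hcn3: cccagaggtccccaaatttctGCCAACATG
Hcn4: ccagtacgctccaaactgccgTCTAATTTA
Aligned at the stop codon, Hcn2 and Hcn4 share 16 of 30 bases, Hcn2 and Hcn3 share 15, and Hcn3 and Hcn4 share 14. In the last 9 bases, Hcn2 shares 7 with Hcn3 and 6 with Hcn4, and Hcn3 shares 4 with Hcn4. These are counts of bases, not of amino acids. Read as codons, the last 9 bases of Hcn2 and Hcn4 encode the same tripeptide, Ser-Asn-Leu. Those of Hcn3 encode Ala-Asn-Met.

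Promoter sequences from RefSeq (GRCm38.p6), from 250 bases before the start to 50 after it, were at hand for 5 of the 7 genes. The 2 that differ most in CG dinucleotides, a letter pair that is the same on both strands, are shown with each CG in capitals. The Hcn4 promoter, chr9:58822699-58822998 on the plus strand, has 31 CG and 71.7% G or C.
Hcn4: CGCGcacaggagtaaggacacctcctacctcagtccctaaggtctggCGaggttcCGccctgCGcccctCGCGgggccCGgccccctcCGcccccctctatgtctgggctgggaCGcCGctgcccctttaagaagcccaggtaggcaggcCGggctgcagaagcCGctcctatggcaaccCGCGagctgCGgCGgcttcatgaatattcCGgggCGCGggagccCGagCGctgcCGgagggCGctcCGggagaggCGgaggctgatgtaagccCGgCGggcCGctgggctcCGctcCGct
The Nalcn promoter, chr14:123627095-123627394 on the minus strand, has 3 CG and 48.3% G or C.
Nalcn: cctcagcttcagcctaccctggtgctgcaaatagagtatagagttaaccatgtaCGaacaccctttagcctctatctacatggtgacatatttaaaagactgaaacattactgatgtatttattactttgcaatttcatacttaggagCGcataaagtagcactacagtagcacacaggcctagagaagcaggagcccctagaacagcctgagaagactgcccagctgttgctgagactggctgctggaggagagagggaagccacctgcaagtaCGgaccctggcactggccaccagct
Hcn2 has 26 CG, and Unc79 and Unc80 have 8 each, against a median of 7 over 32851 mouse promoters of the same length. At least as many as in Hcn4 are found in 10.6% of those promoters, as in Hcn2 in 16.9%, as in Unc79 and Unc80 in 48.6%, and as in Nalcn in 76.7%. These letters are a description of the sequence, and no methylation or factor binding was measured. For Hcn4 and Unc80 the RefSeq window lies ahead of the GENCODE gene start given with the values.

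Gene counts totalled 9621762 to 10988373 per library, and a count of 0 allows up to 0.273 to 0.312 CPM (counts scaled to the library total), the level of 3 counts, for counting error only. Slc17a6, whose regulatory sequences drive the tag, stood at 2011 to 2309 CPM. Slc17a7, the other glutamatergic neuron marker listed, stood at 22.1 to 79.2 CPM. With no input RNA, these levels cannot show that the labelled cells were enriched. Rn45s, the ribosomal RNA precursor, made up 4.99% of replicate 1, 14.2% of replicate 2, 13.6% of replicate 3 and 4.92% of replicate 4. Markers of other cells were also present. The summed level of 4 Purkinje cell markers ranged from 534 to 2429 CPM, that of 4 granule cell markers from 362 to 933 CPM and that of 5 oligodendrocyte markers from 434 to 995 CPM. The 4 microglia markers summed to 3.85 to 11.5 CPM and the 3 vessel markers to 8.64 to 29.7 CPM. In such bulk RNA, more cells of a type and more RNA per cell cannot be told apart.

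All 7 genes were detected in every library at well over 3 counts, the lowest count being 160, for Hcn2 in replicate 4. Unc80 stood far above the rest, at 1094 ± 88.7 CPM (SD, n = 4), and Nalcn, Pex5l and Unc79 lay between 81.2 and 116 CPM. The 3 HCN genes were the lowest, with means from 26.9 to 32.5 CPM. By CPM, Unc80 was higher than 99.6% of the 13656 genes with a mean of at least 1 CPM, Nalcn than 86.7% and Hcn2 than 57.1%. CPM is not divided by gene length. Per kb of all annotated exons, Unc80 was higher than 97.1% of the 13025 such genes with a length, Nalcn than 64.2% and Hcn2 than 65.9%.

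**Figure D1:**
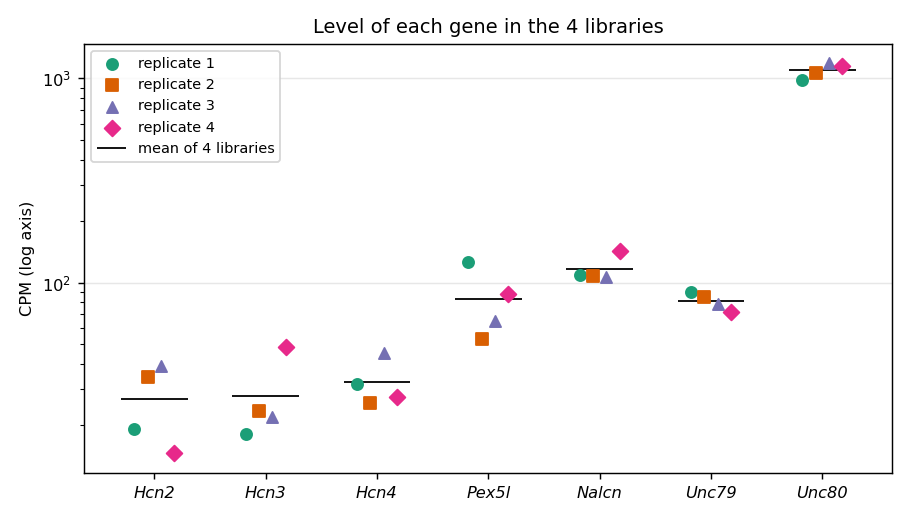
Level of each of the 7 genes in CPM (counts scaled to the library total, log axis, not divided by length), with 1 point per library and a line at the mean of 4 libraries. Unc80 sits at 985 to 1182 CPM, and the points of Unc80, Unc79 and Nalcn lie closer together than those of Hcn2, Hcn3 and Pex5l.

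The HCN genes encode the pore-forming subunits. Hcn4, the slowest channel of the 3 and the main one of the cardiac pacemaker, lies on chromosome 9 at 58823412 to 58863175 (mm10, plus strand). It stood at 31.9, 25.6, 44.9 and 27.5 CPM in replicates 1 to 4, a mean of 32.5 ± 8.71 CPM. Replicate 3 was the highest and the other 3 libraries were close together. Hcn3, on chromosome 3 at 89146074 to 89160196 (minus strand), responds little to cyclic AMP. It stood at 18.2, 23.5, 21.9 and 48.2 CPM, a mean of 28.0 ± 13.7 CPM. Replicate 4 was the high library, and the other 3 lay together well below it. Of the Hcn3 exons, 17.1% (711 bases) overlap Pklr, a gene of the opposite strand, which had 0 to 6 counts per library.

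Hcn2, a subunit that responds strongly to cyclic AMP, lies on chromosome 10 at 79716634 to 79736108 (plus strand). It stood at 19.2, 34.6, 39.1 and 14.6 CPM, a mean of 26.9 ± 11.8 CPM. Replicates 2 and 3 were high, and replicates 1 and 4 were low. The same 2 libraries had the larger shares of Rn45s, and with Rn45s left out of the totals Hcn2 stood at 20.2, 40.4, 45.3 and 15.3 CPM. The order of the libraries, replicate 3 highest, then 2, 1 and 4, was also that of 4 of the 9 marker lists: Purkinje cell (2429, 1144, 799 and 534 CPM), granule cell (933, 445, 379 and 362 CPM), GABA and glycine neuron (369, 173, 114 and 72.3 CPM) and astrocyte and Bergmann glia (263, 147, 116 and 106 CPM). In every library 1 CPM was reached by 3 of 4 Purkinje cell, 4 of 4 granule cell, 3 of 4 GABA and glycine and 4 of 5 astrocyte and Bergmann glia markers, Slc6a5 being at 0 in replicate 4. This order was that of the sums. Itpr1 and Car8, with means of 886 and 293 CPM, made up most of the Purkinje cell sum. Pcp2 was highest in replicate 2 (13.0 CPM). Calb1, Fat2, Neurod1 and Gfap were higher in replicate 4 than in replicate 1, and Aqp4 and Aldh1l1 also had other orders. The other markers of the 4 lists kept the order. The part of these cell types in the Hcn2 level was not tested.

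Within a library, Hcn2, Hcn3 and Hcn4 changed places. Divided by the union of all annotated exons, to allow a comparison between genes, their levels were 8.41 ± 3.70, 6.73 ± 3.30 and 5.31 ± 1.42 CPM per kb of exon. Of the summed level per kb of these 3 genes, Hcn2 took 38.5, 52.4, 49.2 and 22.1% in replicates 1 to 4. Hcn3 took 28.0, 27.3, 21.2 and 56.2%, and Hcn4 took 33.4, 20.2, 29.5 and 21.7%. Hcn2 thus led in 3 libraries and Hcn3 in replicate 4. Per kb of coding length, Hcn4 led in replicate 1 (36.8%, against 32.3% for Hcn3 and 30.9% for Hcn2), which leaves Hcn2 first in 2 libraries.

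Pex5l, on chromosome 3 at 32949408 to 33143247 (minus strand), stood at 126, 53.0, 65.2 and 87.9 CPM, a mean of 83.1 ± 32.3 CPM. Replicate 1 was the highest and replicate 2 the lowest, so its high libraries were those in which Hcn2 was low. Within each library the log2 ratio of Hcn2 to Pex5l per exon length was -1.24, 0.86, 0.73 and -1.12, which changes sign between the libraries. A stretch of 340 bases, 3.84% of its exons, overlaps the antisense gene model Gm37459, which is not among the names in the tables.

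Of the sodium leak complex, Nalcn lies on chromosome 14 at 123276634 to 123627144 (minus strand) and encodes the pore. It stood at 109, 107, 107 and 143 CPM, a mean of 116 ± 17.5 CPM. Replicates 1 to 3 lay close together, and replicate 4 was higher. Unc79, on chromosome 12 at 102948859 to 103184065 (plus strand), stood at 90.2, 84.5, 78.1 and 71.9 CPM, a mean of 81.2 ± 7.93 CPM, with no library apart. Unc80, on chromosome 1 at 66468367 to 66699148 (plus strand), links Unc79 to the channel and stood at 985, 1060, 1182 and 1147 CPM. Its highest library was 1.20 times its lowest, against 2.68 times for Hcn2 and 2.65 times for Hcn3.

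Spread among libraries was lowest for the leak complex, though no test of that difference was made. The biological coefficient of variation, edgeR's estimate of the spread beyond counting noise, was 26.7% for Unc80, 27.7% for Unc79 and 28.3% for Nalcn. It was 31.5% for Pex5l, 35.6% for Hcn4, 41.1% for Hcn2 and 41.4% for Hcn3, with a median of 38.7% over 11227 genes. These are estimates that borrow from other genes of like level, and abundant genes have lower ones. Of all these genes, 98.0% were more variable than Unc80, 89.7% than Nalcn and 44.7% than Hcn2.

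Levels of different genes were compared per kb of exon, as the log2 ratio within each library, to ask which of the 7 were more abundant than others. Unc80 stood at 75.8 ± 6.15 CPM per kb and exceeded each of the other 6 genes in 4 of 4 libraries, by 8.50 to 14.6-fold. Of the 21 pairs, these 6 passed (limma, adjusted p under 0.05 over all genes tested against the same reference), and the other 15 did not. Over the tables of the 6 references, 66% of all genes tested differed from the reference. Among all genes, 17.2% were called higher than Hcn2, 20.5% than Hcn3, 29.6% than Hcn4, 17.2% than Pex5l, 22.7% than Nalcn and 30.5% than Unc79, as Unc80 was.

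Within the complex, Unc80 exceeded Nalcn by 9.63-fold, with a log2 ratio of Nalcn to Unc80 of -3.27 ± 0.19 (SD, n = 4; limma, adjusted p = 5.8e-04). In replicates 1 to 4 that ratio was -3.21, -3.33, -3.50 and -3.04. Unc80 exceeded Unc79 by 13.3-fold (log2 ratio of Unc79 to Unc80 -3.74 ± 0.25, limma adjusted p = 2.8e-04). Of the summed level per kb of the 3 genes, Unc80 took 83.3 to 86.6%, Nalcn 7.67 to 10.3% and Unc79 5.35 to 7.71%. The Nalcn share was 13.6 to 17.8% with the longest transcript as length and 13.8 to 18.1% with coding length, and that of Unc80 was 74.0 to 78.5% and 75.4 to 79.6%. No annotated gene overlaps the exons of Unc80 or of Nalcn.

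Unc80 also exceeded the HCN genes and Pex5l. The log2 ratio to Unc80 was -3.28 ± 0.66 for Hcn2 (limma, adjusted p = 6.0e-05), -3.60 ± 0.56 for Hcn3 (adjusted p = 6.3e-04), -3.87 ± 0.33 for Hcn4 (adjusted p = 3.2e-04) and -3.09 ± 0.61 for Pex5l (limma, adjusted p = 3.4e-04). An exact two-sided sign-flip test over 4 libraries cannot go below 0.125, the value it gave for each of these ratios, so the adjusted values rest on the variance that limma shares between genes.

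**Figure D2:**
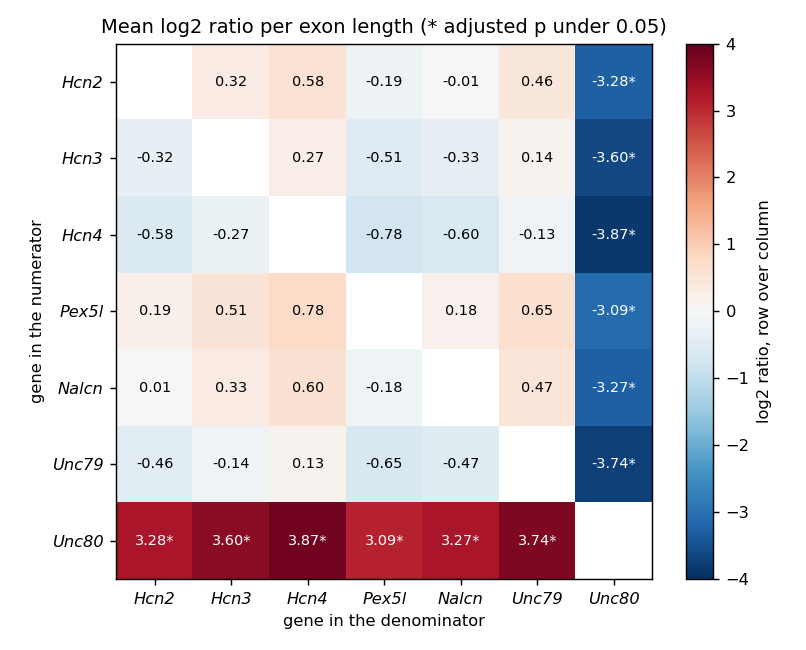
Mean log2 ratio of the row gene over the column gene per kb of exon over 4 libraries, from blue (row lower) to red (row higher), with a star where limma's adjusted p was under 0.05. The stars are confined to the row and the column of Unc80, where Unc80 was 8.50 to 14.6-fold higher.

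By mean level per kb of exon, the order after Unc80 was Pex5l at 9.39 ± 3.65, Hcn2 at 8.41, Nalcn at 7.91 ± 1.19, Hcn3 at 6.73, Unc79 at 5.69 ± 0.56 and Hcn4 at 5.31 CPM per kb. No 2 neighbours in this row, nor any other pair among the 6, differed past the threshold (limma, adjusted p from 0.0862 to 0.985). The nearest to it were Hcn4 and Pex5l, with a log2 ratio of -0.78 ± 0.65 and Pex5l higher in 4 of 4 libraries (limma, adjusted p = 0.0862). This pair passed with only genes of at least 10 CPM tested (limma, adjusted p = 0.0334) and with trended, robust moderation (limma, adjusted p = 0.0245). Nalcn exceeded Unc79 in 4 of 4 libraries by a log2 ratio of 0.47 ± 0.33, which did not pass either (limma, adjusted p = 0.117). Hcn2 and Hcn3 had a log2 ratio of 0.32 ± 1.15 (adjusted p = 0.627), with values of 0.46, 0.94, 1.21 and -1.35. Missing the threshold does not show that these levels are alike.

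The choice of length decides the order below Unc80. The exon union counts the exons of every annotated transcript of a gene. It is 14715 bases for Nalcn against 7122 in its longest transcript, 14265 against 8874 for Unc79 and 8846 against 4206 for Pex5l. For Unc80 the lengths are 14425 and 13613 bases, and for Hcn2 and Hcn4 they are equal. Per kb of the longest transcript, Pex5l stood at 19.8 ± 7.67, Nalcn at 16.3 ± 2.46, Unc79 at 9.15 ± 0.89 and Hcn4 at 5.31 CPM per kb. With that length 13 pairs passed (67.5% of all genes over the 6 tables), and with coding length 13 also did (69.3%). Pairs that passed with the longest transcript were, beside those of Unc80, Nalcn over Unc79 (log2 ratio 0.83, adjusted p = 0.0204), Pex5l over Unc79 (1.04, adjusted p = 0.0381) and Unc79, Nalcn and Pex5l over Hcn4 (log2 ratios of Hcn4 to them of -0.81, -1.64 and -1.85, limma adjusted p = 0.0481, 0.00435 and 0.00410). Nalcn and Pex5l also passed over Hcn3 (-1.32 and -1.53, limma adjusted p = 0.0284 and 0.0253). The 13 pairs of coding length were not the same ones. Hcn4 against Unc79 and Hcn3 against Nalcn missed the threshold there (limma, adjusted p = 0.554 and 0.0716). Pex5l and Nalcn passed over Hcn2 instead (log2 ratios of Hcn2 to them of -2.07 and -1.21, limma adjusted p = 0.00272 and 0.0456). Unc80 exceeded Nalcn by 4.94-fold with either of these lengths and Pex5l by 4.28-fold with the longest transcript and 2.71-fold with coding length.

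**Figure D3:**
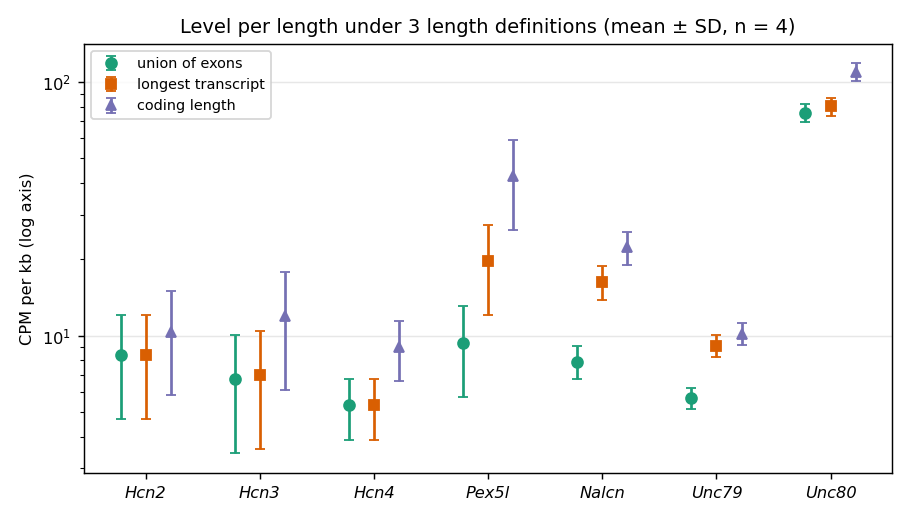
Level of each gene in CPM per kb (log axis, mean ± SD, n = 4 libraries) with the length taken as the union of exons, the longest transcript or the coding length. Pex5l moves from 9.39 to 19.8 and 42.6 CPM per kb and Nalcn from 7.91 to 16.3 and 22.3, while Unc80 stays the highest under each.

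Each library was then set against the other 3 over all genes, to ask whether the 7 genes set any library apart. None of the 28 comparisons passed (edgeR, smallest adjusted p = 0.243), DESeq2's Wald test also called 0, and 1 had an unadjusted p under 0.05. By edgeR the background was low, with 0.00891% of 11227 genes called in replicate 1, 0% in replicates 2 and 3 and 0.0534% in replicate 4. DESeq2 called 0.183, 0.0267, 0.598 and 3.1% of the genes it tested. An unadjusted edgeR p under 0.05 was found for 3.78, 0.392, 6.94 and 15.1% of genes in replicates 1 to 4. The comparison with the unadjusted p under 0.05 was Hcn3 in replicate 4, where it had a log2 fold change of 1.31 (SE 0.46, edgeR adjusted p = 0.243, and 0.119 to 0.455 over the alternatives). Of all genes, 13.9% had a larger change in that library. Replicate 4, whose library number 1476 lies apart from the numbers 1300 to 1302 of the others, also had the highest sum of 5 monoamine neuron markers, 94.3 CPM against 12.7 to 63.8 CPM. Of these markers 2 reached 1 CPM in every library and Tph2 was at 0 in 3 libraries, replicate 4 among them. Th, Dbh and Slc18a2 were highest in replicate 4, but Slc6a2 was highest in replicate 2 (14.0 CPM against 13.1 CPM in replicate 4). The sum of 63.8 CPM was that of replicate 2, in which Hcn3 stood at 23.5 CPM. The part of such cells in the Hcn3 level was not tested.

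The other genes stood nearer to their level in the other libraries or had wide errors. Hcn2 in replicate 4 had a log2 fold change of -0.98 (SE 0.60, edgeR adjusted p = 0.459) and Nalcn one of 0.54 (SE 0.33, adjusted p = 0.457). Pex5l in replicate 1 had a log2 fold change of 0.69 (SE 0.45, edgeR adjusted p = 0.990), and in replicate 2 one of -0.78 (SE 0.56, adjusted p of about 1.0). For Unc79 the fold changes in the 4 libraries ran from -0.10 to 0.10 and for Unc80 from -0.38 to 0.22.

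**Figure D4:**
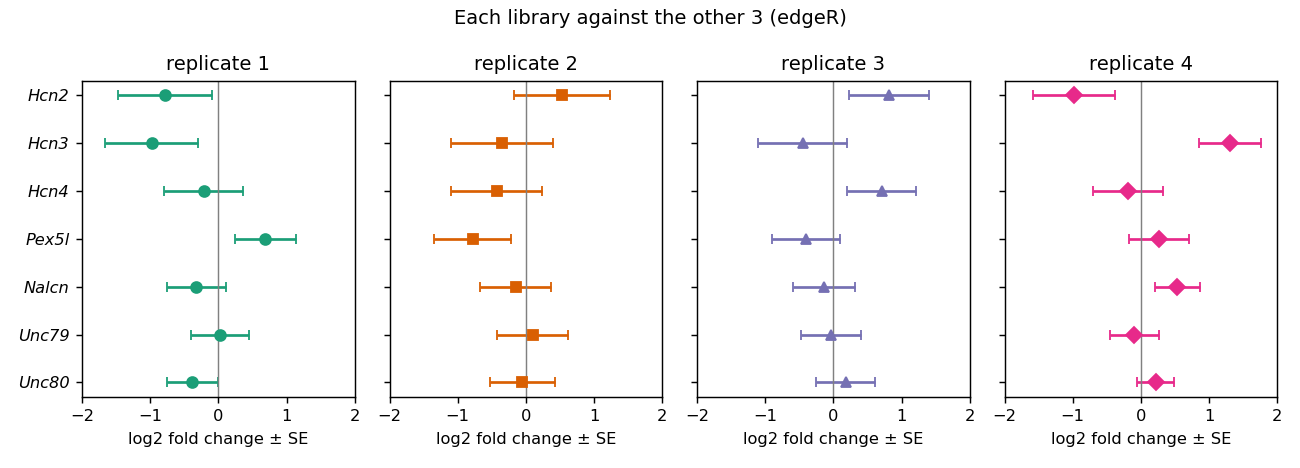
Log2 fold change of each library against the other 3, with its standard error (edgeR), for each gene and replicate. The values lie between -0.98 and 1.31, and none passed the threshold.

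The 7 genes were set beside 75 measured genes of 11 lists on spontaneous firing and its control, 66 of which were abundant enough to be compared per kb of exon. Of these 66, 24 were higher than Nalcn and 27 lower (limma, adjusted p under 0.05), where 22.7% of all genes were higher and 49% lower. Against Unc80, 61 were lower and 0 higher (94.4% and 1.37% of all genes). These counts and the list values below are per kb of exon union, a length that is large for Nalcn. Per kb of the longest transcript, 14 were higher than Nalcn and 33 lower (15.3% and 61.2% of all genes), and 0 were higher than Unc80 and 59 lower (1.92% and 92.4%). With coding length, 23 were higher than Nalcn and 29 lower (27.8% and 45.5%), and 5 were higher than Unc80 and 50 lower (6.54% and 82.7%).

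Of further partners of the channels, Fam155a encodes another subunit of the Nalcn complex. It stood at 298, 209, 264 and 285 CPM and at 40.4 ± 5.97 CPM per kb. It was higher than Nalcn by a log2 ratio of 2.35 and differed from Unc80 by -0.92 (limma, adjusted p = 9.5e-04 and 0.00740). The ratio to Unc80 was -0.05 with the longest transcript (limma, adjusted p = 0.820) and turned to 0.77 with coding length (limma, adjusted p = 0.0154). Of 7 other genes whose products act on HCN channels, 3 reached 1 CPM in all libraries. Only 4 of them were compared, and 1 was higher than Nalcn and 2 lower. The list was led per kb by the ubiquitin ligase gene Nedd4l at 17.2 ± 7.70 and by Kctd3 at 5.48 ± 1.36 CPM per kb. Lrmp and Cav3 had no count in any library. Among 6 receptors and kinases coupled to Nalcn, 5 were compared, of which 1 was higher than it and 3 lower (0 and 3 with the longest transcript). The kinase gene Fyn stood at 17.6 ± 2.46 CPM per kb, and Casr, the calcium-sensing receptor, had no count. Tacr1, the substance P receptor, stood at 34.0, 33.0, 43.4 and 137 CPM, so that replicate 4 was the highest, as for Hcn3 and Nalcn.

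Some channels of the spike itself were above the leak channel. Of 9 genes of the sodium channel list, 8 were higher than Nalcn and 0 lower (4 and 1 with the longest transcript, 8 and 1 with coding length). Among them, the beta subunit gene Scn2b stood at 65.8 ± 10.3 CPM per kb. Its log2 ratio to Nalcn was 3.05 (limma, adjusted p = 7.4e-04). Scn3a was the lowest of that list at 5.44 ± 2.60 CPM per kb. Of the Kv3 genes, whose channels end the spike quickly, Kcnc1 at 41.4 ± 2.13 and Kcnc2 at 15.6 ± 4.27 CPM per kb were both higher than Nalcn (limma, adjusted p = 8.4e-04 and 0.0236). The log2 ratio of Kcnc2 to Nalcn was 0.96, and per kb of the longest transcript it was 0.41 and did not pass (limma, adjusted p = 0.208). Of the 3 T-type calcium channel genes 0 were higher and 1 lower (3 lower with either other length), Cacna1g standing at 6.42 ± 2.22, Cacna1i at 5.40 ± 1.22 and Cacna1h at 1.57 ± 0.57 CPM per kb. Of 5 calcium-activated potassium channel genes 0 were higher than Nalcn and 4 lower (1 and 4 with coding length). Kcnma1 stood at 8.69 ± 2.23, Kcnn3 at 1.92 ± 0.71 and Kcnn1 at 0.68 ± 0.55 CPM per kb.

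Of 8 potassium leak channel genes compared, 1 was higher than Nalcn and 5 lower (6 lower with the longest transcript and 3 with coding length). Kcnk1 stood at 39.8 ± 19.3 and Kcnk3 at 7.77 ± 2.72 CPM per kb, and Kcnk5, the lowest, had 12 counts in all. Of 5 TRPC channel genes compared, 1 was higher and 3 lower (0 and 4 with either other length), with Trpc5 at 14.0 ± 3.65 and Trpc6 lowest at 0.10 ± 0.12 CPM per kb. Genes that make and break down cyclic AMP, the ligand of HCN channels, lay on both sides. Of 8 adenylyl cyclases compared, 3 were higher than Nalcn and 3 lower (1 and 4 with either other length), led by Adcy1 at 31.4 ± 10.2 and Adcy9 at 21.4 ± 7.38 CPM per kb, and Adcy10 had 13 counts in all. Of 14 phosphodiesterases compared, 4 were higher and 6 lower (3 and 6 with the longest transcript, 5 and 5 with coding length). They were led by Pde4a at 31.2 ± 3.57 and Pde4d at 22.3 ± 5.36 CPM per kb, and Pde4c had 1 count in all. None of the 62 list genes tested set any library apart (edgeR, adjusted p under 0.05).

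**Figure D5:**
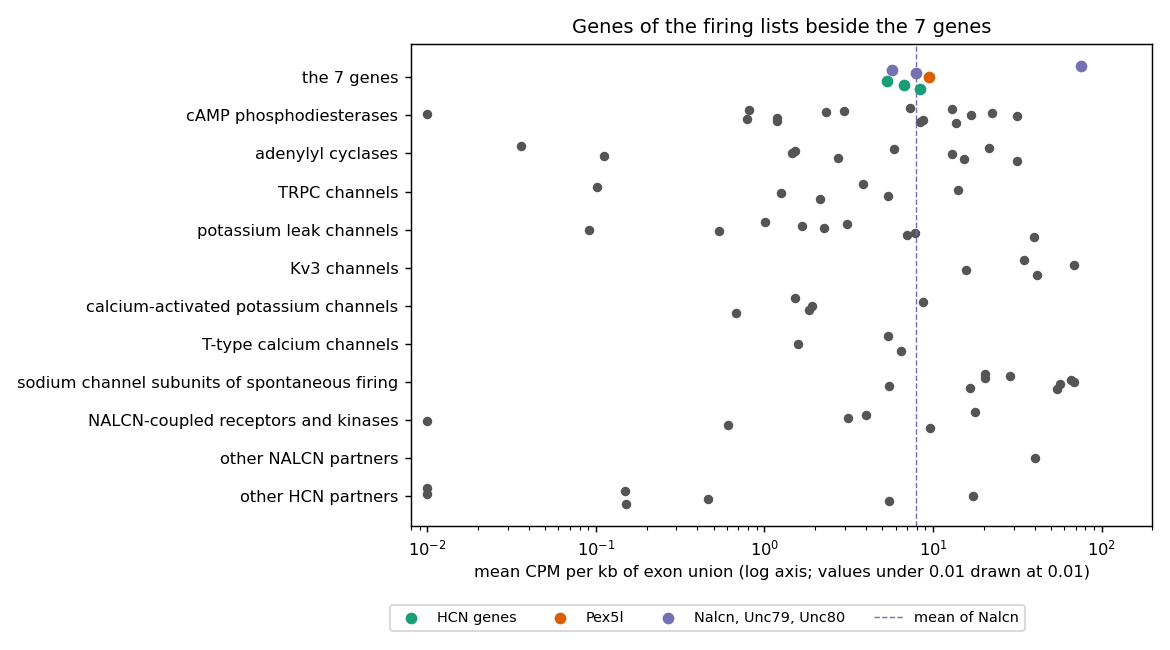
Mean level per kb of exon (log axis) of each measured gene in the 11 lists and, in the top row, of the 7 genes, with a dashed line at the mean of Nalcn (7.91 CPM per kb). Sodium channel and Kv3 genes lie mostly to the right of the line, calcium-activated potassium channel genes mostly to the left, and Unc80 lies to the right of every gene of the lists on this scale.

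By the root mean square difference in log2 level per kb of exon over the 4 libraries, among 81 genes of these lists and the 7 genes themselves, the nearest to Hcn2 was Kcnk3 (0.16), then Pde10a (0.38) and Cacna1g (0.41). The nearest to Hcn3 were Tacr1 (0.49), Nalcn (0.49) and Scn3a (0.50). Both Hcn4 and Unc79 were nearest to Adcy8 (0.28 and 0.25), then to Kctd3 (0.29 and 0.27) and Cacna1i (0.30 each). Pex5l was nearest to Pde2a (0.34), Pde1b (0.39) and Nalcn (0.50), and Nalcn to Kcnma1 (0.24), Pde2a (0.40) and Pde10a (0.41). Among the genes nearest to Unc80 were Scn2b (0.35) and Scn8a (0.47). These distances over 4 libraries are small for any genes of like level and carry no test.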

How the data were processed

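Each deposited file holds raw read counts per gene name for 1 library. The submitters' processing notes list STAR 2.0.0e and HTSeq as tools and mm10 as the build. Which annotation the authors counted on, and whether by strand, is not given in the sources used here, and no molecular identifiers correct for amplification. Summary rows and a row named unknown were left out: reads with no feature were 14.1 to 21.1%, not unique 14.2 to 20.6% and ambiguous 2.04 to 2.94% of all. No 2 libraries were alike within counting noise (chi-square over its degrees of freedom 34.9 to 127).

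Lengths came from GENCODE release M21 (same build) and covered 95.4% of genes with a mean of at least 1 CPM. The union of exons was the main length. Ratios of log2((count + 0.5) per kb) to each of the 7 genes were tested over 13024 genes with limma 3.58.1 (moderated, two-sided, intercept only, Benjamini-Hochberg, threshold 0.05). Each pair was read from the table of the gene named first in the order of the opening sentence. For single libraries, R 4.3.3 and edgeR 4.0.16 compared 1 library with the remaining 3 (robust quasi-likelihood test, TMM, filterByExpr), and DESeq2 1.42.0 served as an alternative. The limma ratio test and the edgeR test were also run on simulated counts with the same spread for all genes. DESeq2 was not. Alternatives were other lengths, pseudocounts, filters, moderation, references and size factors, Rn45s left out, and each replicate left out. The named genes are the 7, the 2 highest and the lowest per kb of each list, and the 3 nearest genes of the lists. The list comparisons were repeated with the other lengths after the data were seen. Lrmp was named after its values were seen. The members, lists and tests were chosen with earlier results of these data known. Levels of other HCN genes and of some genes on the lists are left out.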

Additional observations from a re-analysis of the deposited data

Results flagged for a closer look

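The level of Nalcn in replicate 4, 143 CPM against 107 to 109 CPM in the others, stood apart: its gap to the nearest library was 0.948 of the whole range, above Dixon's 95% critical value for 4 samples. It was the 1 of 28 values checked (7 levels and 21 pair ratios) that did so, and chance flags about 1 in 20. With Rn45s left out of the totals, Nalcn stood at 114, 125, 124 and 150 CPM in replicates 1 to 4. On that scale replicates 1 to 3 lay less close together and replicate 4 was still the highest. Its gap to the nearest library was then a smaller part of the range and under the critical value. Nalcn thus stood apart only with Rn45s kept in the totals. In edgeR's test the same library did not pass for Nalcn (adjusted p = 0.457).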

How the results depend on the processing

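No paired analysis was possible because the samples form 1 group. The 6 ratios of Unc80 kept direction and call under all 12 alternatives. The count of 21 pairs passed rose from 6 to 13 with the longest transcript and to 13 with coding length, was 7 with a filter of 10 CPM and with trended, robust moderation, and ran from 6 to 8 with a replicate left out. In a comparison added after the data were seen, list genes higher than Nalcn went from 24 to 14 with the longest transcript, and those higher than Unc80 from 0 to 5 with coding length. Without replicate 3, Hcn4/Pex5l (-1.04) and Hcn4/Nalcn (-0.80) passed. With the longest transcript the ratio Hcn2/Unc79 turned to -0.23 and Hcn3/Unc79 to -0.49, and with coding length Hcn2/Unc79 turned to -0.082 and Hcn2/Hcn3 to -0.21. With a replicate left out, ratios that turned sign ran from -0.54 to 0.16 (Hcn2/Pex5l), -0.27 to 0.34 (Hcn2/Nalcn), -0.10 to 0.52 (Hcn3/Hcn4), -0.21 to 0.36 (Hcn3/Unc79) and -0.076 to 0.34 (Pex5l/Nalcn). The cause was not tested. No alternative called any of the 7 genes in a library. Without one of the other replicates, the fold change in library 1 ran from -0.38 to 0.079 for Hcn4 and -0.0068 to 0.067 for Unc79, in library 2 from -0.18 to 0.032 for Unc80, -0.64 to 0.29 for Hcn3 and -0.27 to 0.067 for Nalcn, in library 3 from -0.077 to 0.0060 for Unc79, -0.75 to 0.15 for Hcn3 and -0.26 to 0.066 for Nalcn, and in library 4 from -0.35 to 0.089 for Hcn4. Over all genes, calls in libraries 1 to 4 were 1, 0, 0 and 6 in the main test, 25, 5, 88 and 423 with DESeq2, 32, 0, 86 and 416 with no filter, and 10 to 56, 0 to 2, 1 to 20 and 35 to 173 with a replicate left out. Counts of 160 to 530 for the HCN genes leave their precision to the spread between libraries.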
